A study of Arabidopsis thaliana with 4 samples.

Results

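The genes rbcL and psbA, both carried by the chloroplast chromosome, were followed in an albino mutant line of Arabidopsis thaliana. They were chosen by the gene symbol that the platform annotation gives to a probe set, with earlier results of the same arrays known, among them that both were lower in the plants titled albino. Their levels and their differences between the groups are therefore given as a description, with no test. Each gene had 1 probe set (245015_at for rbcL and 245047_at for psbA), so the members are 2 of the 13356 genes that had a probe set assigned to 1 gene alone. The study asked what a strong albino mutation does to transcript levels genome-wide, and it measured total RNA on 4 arrays, 2 titled control and 2 titled albino. Both kinds of plant were segregants from the parental line of the albino mutant DS 13-2198-1, the controls having a normal phenotype. They were 3 weeks old and had shared plates of 1/2 MS medium with 2% sucrose in a chamber at 23 °C with 16 h light and 8 h dark. The labels name neither the mutated gene nor the genotype of the normal segregants, and they do not say which organs were taken or how many plants were pooled. The free-text description of every sample says wild type, also where the title says albino, and the groups follow the titles.

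The rbcL gene codes for the large subunit of Rubisco, which carries the active site for carbon fixation and assembles with small subunits encoded in the nucleus. The psbA gene codes for D1, a reaction-centre protein of photosystem II that is damaged by light and replaced continually. In plants, photosynthesis genes of the chloroplast are transcribed mainly by a bacterial-type RNA polymerase whose core subunits are encoded in the chloroplast (rpoA, rpoB, rpoC1 and rpoC2) and whose sigma factors come from the nucleus, while phage-type polymerases encoded in the nucleus transcribe several of the housekeeping genes.

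Signals are log2 values, so a difference of 1 is a factor of 2. The rbcL signal was 8.44 in control replicate 1 and 7.59 in control replicate 2, against 7.85 in albino replicate 1 and 7.05 in albino replicate 2. Within each replicate number the albino array was the lower, but the groups overlapped, because albino replicate 1 lay 0.26 above control replicate 2. The control arrays differed from each other by 0.85 and the albino arrays by 0.80, more than the difference between albino and control, which was -0.59 in replicate 1 and -0.54 in replicate 2. The group means were 8.02 ± 0.60 (SD, n = 2) for control and 7.45 ± 0.56 (SD, n = 2) for albino. The difference of means was -0.56 (SE 0.42), or 67.6% of the control signal on a linear scale. Leaving out an array moved that difference by more than 1.5 times in every case, since each omission mixes the replicate numbers. It was -0.14 without control replicate 1, -0.17 without albino replicate 2, -0.96 without albino replicate 1 and -0.99 without control replicate 2.

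The psbA signal was 8.25 and 8.23 in control replicates 1 and 2, and 7.97 and 7.98 in albino replicates 1 and 2. Both albino arrays thus lay below both control arrays, with a gap of 0.25 between the groups. The means were 8.24 ± 0.014 (SD, n = 2) and 7.98 ± 0.003 (SD, n = 2). The difference was -0.28 in replicate 1, -0.25 in replicate 2 and -0.27 (SE 0.25) for the group means, or 83.1% of the control signal. The SE is wide beside these SDs because limma moderates each probe set's spread towards that of all probe sets. The separation of the groups depended on the scaling. After quantile normalization of all 4 arrays together, the psbA signals were 8.36 and 8.10 in control and 8.12 and 7.84 in albino, so that albino replicate 1 lay above control replicate 2. The within-replicate differences were then -0.24 and -0.27. The groups also overlapped after centring on the brighter 50% of probe sets (8.39 and 8.09 in control, 8.13 and 7.83 in albino). They did so too after cyclic loess (8.38 and 8.07 in control, 8.09 and 7.82 in albino).

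**Figure D1:**
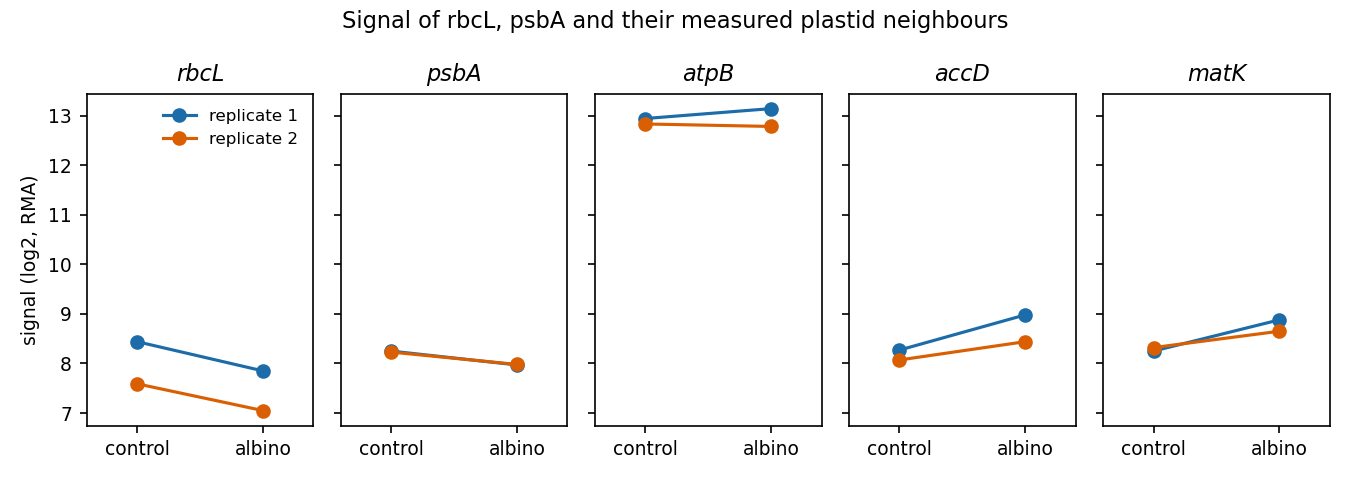
Signal (log2, RMA) of rbcL, psbA and the 3 measured genes beside them on the chloroplast chromosome in control and albino arrays, with points for single arrays and a line joining the arrays of 1 replicate number. The lines of rbcL and psbA slope down towards albino in both replicates, and those of accD and matK slope up.

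These sizes were read against all 22746 probe sets. With limma, 0 probe sets were called higher (0% of those tested) and 0 lower (0%) at an adjusted p under 0.05, while 609 higher and 701 lower had an unadjusted p under 0.05. Neither rbcL nor psbA was therefore called. Signals were lower in albino in both replicate numbers for 28.5% of all probe sets, and both albino arrays lay below both control arrays, as for psbA, for 13.6%. The rbcL difference stood at the 11.8th percentile of all differences in replicate 1 and at the 5.79th in replicate 2. For psbA these places were the 26.1st and the 16.7th percentile. Nothing about the members follows from shares of this size, since they were chosen with this contrast known.

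Both transcripts are known as abundant in green tissue, and their signals here were above the middle of each array but not at its top. The rbcL probe set stood at the 85.2nd and 71.0th percentile of all probe sets in control replicates 1 and 2, and at the 78.8th and 62.7th in albino replicates 1 and 2. The psbA probe set stood at the 83.2nd and 80.1st percentile in control and at the 80.3rd and 76.6th in albino. On every array rbcL lay at least 5.24 and psbA at least 5.28 below the highest signal. Among plastid genes, the neighbouring probe set for atpB, an ATP synthase subunit gene, ran from 12.78 to 13.14. Probe sets differ in affinity, so these are places in the signal range and not transcript amounts. The arrays do not show the pair as the brightest plastid probe sets, and abundance itself was not measured.

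**Figure D2:**
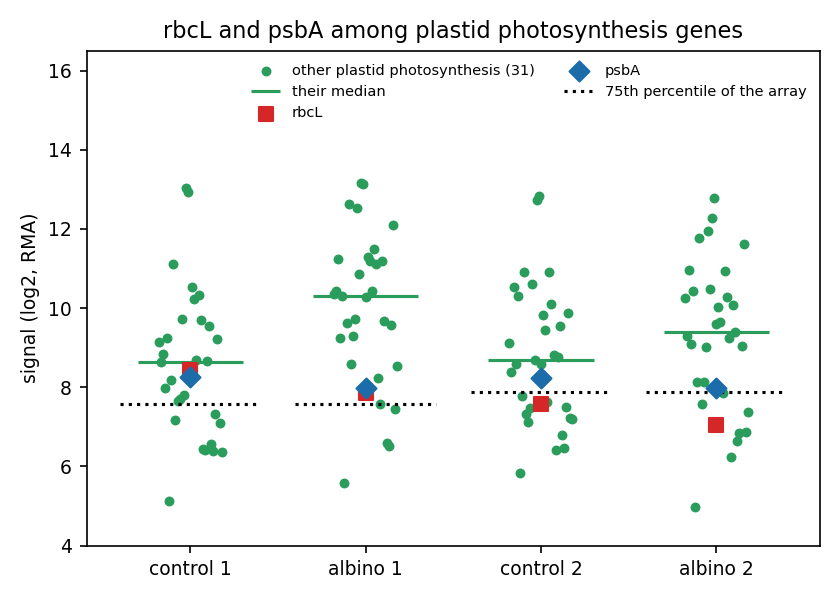
Signal (log2, RMA) of rbcL (squares), psbA (diamonds) and the 31 other plastid photosynthesis genes (dots, with their median as a line) on each array, with the 75th percentile of all probe sets dotted. The median of the 31 is 8.64 in control 1 and 10.31 in albino 1, and 8.69 in control 2 and 9.40 in albino 2, while rbcL and psbA are lower in albino than in the control of the same number.

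The other plastid photosynthesis genes belong to photosystem I, photosystem II, the cytochrome b6f complex and the ATP synthase, and all 31 listed were measured. Of these, 24 were higher in albino in both replicate numbers (34.6% of all probe sets were), 7 had opposite signs and 0 were lower in both, and none was called by limma over all probe sets. Their median difference was 1.43 in replicate 1, 0.35 in replicate 2 and 0.90 for the group means, against a median of 0.02 over all probe sets. In replicate 1 the 31 ran from 0.03 to 3.06, so every one of them lay above both members. In replicate 2 they ran from -0.86 to 1.79, with 7 below 0, of which 1 lay below rbcL and 3 below psbA. For the group means none of the 31 lay below either member. The highest for the group means were psaA and psaB, reaction-centre genes of photosystem I, and the cytochrome b6f gene petB. In replicates 1 and 2 these differed by 3.06 and 1.79 (psaA), 2.82 and 1.34 (psaB) and 2.87 and 1.74 (petB). The lowest were the ATP synthase genes atpI (0.46 and -0.86) and atpE (0.12 and -0.44) and the small photosystem II subunit gene psbT (0.03 and -0.14), each with opposite signs in the replicates.

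Set against the median of these 31 genes, the rbcL difference was lower by 2.03 in replicate 1 and by 0.89 in replicate 2. For the group means rbcL minus the median was -1.47, and without single arrays it ran from -2.05 (without control replicate 2) to -0.89 (without control replicate 1). The psbA difference minus the median was -1.71 in replicate 1, -0.60 in replicate 2 and -1.17 for the group means. The replicates thus disagreed by about as much as the median of the 31 did. No test is given for these gaps, and 2 arrays against 2 cannot give a two-sided exact permutation p below 0.333.

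For rbcL and psbA the differences in the replicate numbers were nearly of 1 size. The replicate 1 difference minus that of replicate 2 was -0.05 for rbcL and -0.02 for psbA. Over the 31 others it had a median of 0.88 and ran from -0.22 to 2.01, and 30 of them were higher in replicate 1 than in replicate 2. Over the 26 measured plastid genes of the polymerase, ribosome and other functions the median was 0.61, with a range from -0.97 to 1.95. Evenness was not particular to the members, since rps3 (-0.54 and -0.56), rpoC1 (-0.71 and -0.76) and psbK (1.21 and 1.14) were about as even. Over all probe sets the differences were wider in replicate 1 (SD 0.598) than in replicate 2 (SD 0.364).

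**Figure D3:**
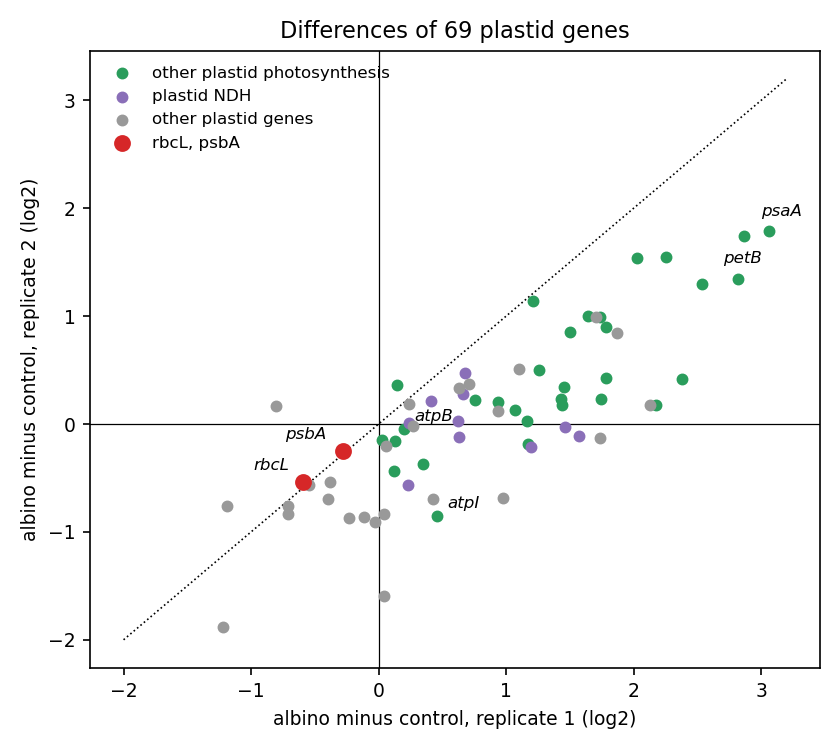
Albino minus control (log2) in replicate 1 (horizontal axis) and replicate 2 (vertical axis) for the 69 measured plastid genes, with equality dotted. The points of rbcL (-0.59 and -0.54) and psbA (-0.28 and -0.25) lie on the dotted line below 0, while 30 of the 31 other photosynthesis genes lie under the line.

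The members did not share a profile beyond their direction. The psbA signal minus the rbcL signal was -0.19 in control replicate 1, 0.12 in albino replicate 1, 0.64 in control replicate 2 and 0.92 in albino replicate 2. It was therefore higher in albino than in control by 0.31 in replicate 1 and 0.29 in replicate 2, and by 0.30 for the group means. The replicate numbers differed more than the groups, and the difference for the group means changed sign without control replicate 1 (-0.12) or without albino replicate 2 (-0.10).

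Partners of D1 in the core of photosystem II did not follow psbA. The gene psbD, for the reaction-centre protein D2 that pairs with D1, had signals of 7.17 and 7.34 in control and 8.60 and 7.57 in albino replicates 1 and 2. Its difference was 1.43 in replicate 1 and 0.23 in replicate 2, the opposite direction to psbA in both. For psbC, coding for the inner antenna protein CP43, the differences were 1.64 and 1.00. The gene psbB, for the other inner antenna protein CP47, was nearer to psbA, with 0.13 and -0.15. Of the 14 photosystem II genes other than psbA, 12 were higher in both replicates and 2, psbB and psbT, had opposite signs.

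The genes next to the members on the chloroplast map went other ways. The rbcL gene lies between atpB and accD. At atpB the differences were 0.20 in replicate 1 and -0.05 in replicate 2, while accD, for a subunit of the acetyl-CoA carboxylase of fatty acid synthesis, gave 0.71 and 0.37. On the control arrays accD had signals of 8.27 and 8.07, and on the albino arrays 8.98 and 8.44. As deposited, its albino arrays thus lay above both controls, as they did for 16.2% of all probe sets. This separation was not checked under the common scalings of all arrays. On its measured side psbA neighbours matK, coding for a splicing factor of the chloroplast. The matK signals were 8.25 and 8.32 in control and 8.88 and 8.65 in albino, higher by 0.63 in replicate 1 and 0.33 in replicate 2. Its neighbour across the start point of the circular map, rpl2, is not analysed here.

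**Figure D4:**
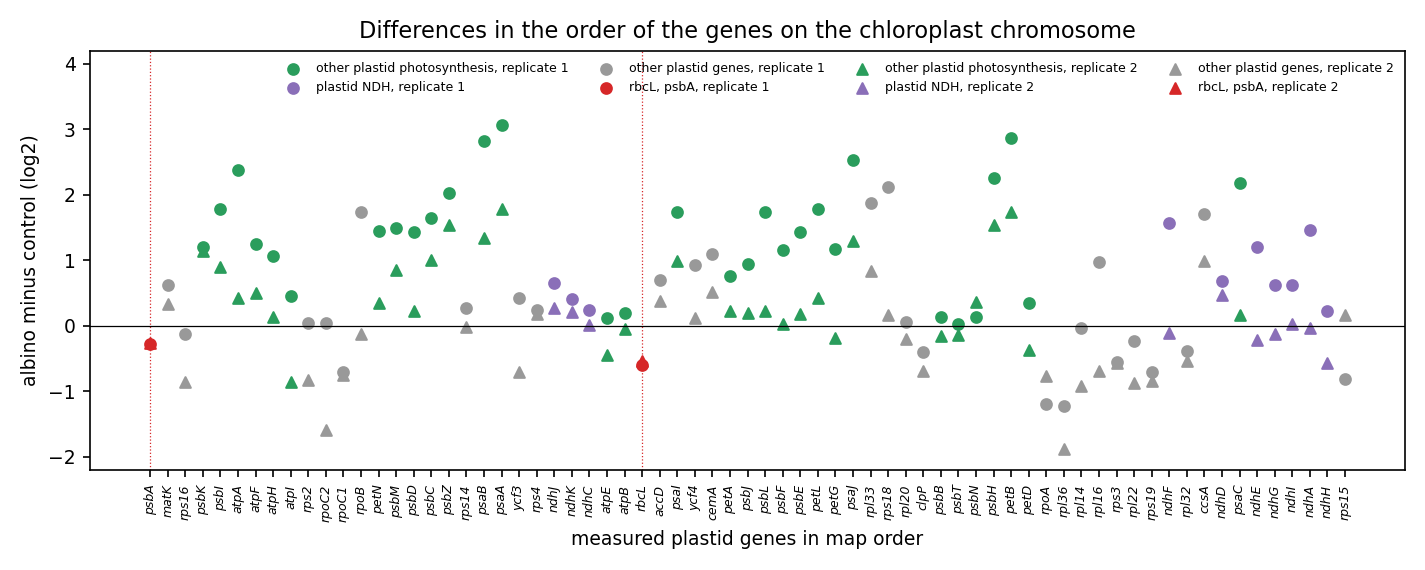
Albino minus control (log2) for the 69 measured plastid genes in map order, as circles for replicate 1 and triangles for replicate 2, with dotted verticals at psbA and rbcL. Both members lie below 0 while their measured neighbours matK, atpB and accD lie above 0 in replicate 1, and a run of genes from rpoA to rps19 is mostly below 0.

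The measured plastid genes outside photosynthesis and the NADH dehydrogenase-like complex went both ways. Of these 26 genes of the plastid polymerase, ribosome and other functions, 10 were lower in both replicates (28.5% of all probe sets were), 8 higher in both (34.6%) and 8 opposite, with a median difference of -0.23 (0.05 in replicate 1 and -0.55 in replicate 2). The 10 lower were the polymerase genes rpoA and rpoC1, the protease gene clpP and the ribosomal protein genes rps3, rps16, rps19, rpl14, rpl22, rpl32 and rpl36. Of the 4 polymerase genes, rpoA (-1.19 and -0.76) and rpoC1 (-0.71 and -0.76) were lower in both replicates, and rpoB (1.74 and -0.13) and rpoC2 (0.04 and -1.59) had opposite signs. None of these was called by limma.

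Likeness of profile was measured as the Euclidean distance between the 4 signals of each gene after centring on their own mean. Among the 68 other measured plastid genes, those nearest to rbcL were the ribosomal protein genes rps3 (distance 0.157), rps19 (0.256) and rps15 (0.545). The rps3 differences were -0.54 and -0.56, close to those of rbcL, and its control arrays also stood apart, at 11.03 and 10.37. The nearest to psbA were psbT (0.278), psbB (0.323) and atpB (0.427), none of which was lower in both replicates. The members lay 0.868 apart, which made psbA the 8th nearest plastid gene to rbcL and rbcL the 25th nearest to psbA. Among the 5908 other genes among the brighter 50% of probe sets, the nearest to rbcL were AT2G03510 (0.107), AT5G42440 (0.131), rps3, AT5G37540 (0.195) and AT1G67820 (0.212). For psbA they were AT5G18630 (0.026), AT5G10160 (0.035), AT5G42090 (0.035), AT1G13990 (0.041) and AT5G03345 (0.054). These distances rest on 4 arrays and are a description.

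Nuclear genes that serve Rubisco and D1 had small differences of either sign, none past the threshold. The choice of members did not use their signals, but the lists were chosen with earlier results of these data known. They rest on the same arrays and contrast, and limma was run over all probe sets. Of 17 listed Rubisco genes 7 were measured, of which 3 were higher and 4 lower in both replicates, with a median difference of -0.05. None was called. The activase gene RCA, whose product frees blocked active sites of Rubisco, had signals of 12.28 and 12.18 in control and 12.54 and 12.34 in albino, higher by 0.26 in replicate 1 and 0.16 in replicate 2. As deposited, both its albino arrays lay above both controls, as for 16.2% of all probe sets, and it was 1 of the 7 to do so. This was not checked under the common scalings of all arrays. Its difference for the group means was 0.21 (limma adjusted p = 1). The chaperonin genes Cpn60beta2 and Cpn60beta3, for subunits of the complex that folds the large subunit, differed by -0.57 and 0.02 in replicate 1 and by -0.10 and 0.05 in replicate 2. Those given by locus alone, with the difference of the group means, were AT5G28500 (-0.21), AT3G47650 (-0.15), AT3G04550 (-0.05) and AT5G51110 (0.12). The small-subunit genes were not among the measured members.

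Of 22 listed genes for the synthesis, assembly and repair of D1 and photosystem II, 5 were measured, with 2 higher in both replicates, 1 lower in both and 2 opposite, and a median difference of 0.07. LPA1, which assists the assembly of D1, differed by 0.24 and -0.09 in replicates 1 and 2. The assembly factor gene PAM68 differed by -0.21 and 0.27, and PSB27, for an assembly factor of photosystem II, by 0.29 and 0.07. The loci AT4G17740 and AT1G54500 differed by 0.31 and -0.26 in replicate 1 and by 0.03 and -0.05 in replicate 2. None was called by limma. The 6 sigma factor genes and 6 listed genes for plastid RNA processing are not analysed here, since none was paired with a probe set of its own. Of 15 listed nuclear genes for plastid transcription 1 was measured, AT5G15700, with 0.53 and 0.32.

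In samples of whole RNA, fewer cells of a type and less RNA per cell cannot be told apart. Of 7 root markers 3 were measured, and PYK10, an abundant beta-glucosidase of roots, had signals of 11.18 and 10.86 in control and 8.89 and 10.19 in albino. The differences of EXPA7 were -0.70 and 0.14 and those of EXPA18 were 0.18 and 0.27, both root hair expansin genes near the bottom of the signal range. The 3 signals summed on a linear scale were 2360 and 1890 on control replicates 1 and 2 and 514 and 1210 on albino replicates 1 and 2. Nearly all of each sum is PYK10, so it is a measure of that gene and not of 3 markers in agreement. The part of root tissue in the rbcL and psbA differences was not tested. Of 4 nuclear markers of leaf mesophyll RCA alone was measured, and it was bright on all 4 arrays. The shoot meristem gene CLV3 differed by -0.66 and 0.26, and the guard cell gene FAMA by -0.07 and -0.37. None of the 4 flower and seed markers was measured.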

How the data were processed

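The deposited values are log2 signals of 22746 probe sets on 4 arrays, summarised with RMA per the submitters' processing notes, for which no software version is stated there. Per the labels' protocols, cRNA was made from 16 µg of total RNA and 30 µg was hybridized. Percentiles of the value distributions differed by at most 0.07 (replicate 1) and 0.085 (replicate 2) between arrays of the same number and by up to 0.354 between the controls, so the numbers look normalized apart, and the members' values are also given within each. The labels do not say that replicates were separate pools, so errors measure the spread between arrays, which may be technical. Precision is limited by having 2 arrays a group.

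The platform annotation gave 1 gene to 13513 probe sets, several to 503 and none to 8730, which are unnamed here. Of those with 1 gene, 13436 matched the TAIR10.1 gene table, used for names and neighbours. A gene was represented by its brightest single-gene probe set. Differences were fitted by lmFit and eBayes of limma 3.58.1, under R 4.3.3 (Benjamini-Hochberg over all probe sets, threshold 0.05). The procedure was tested on simulated data with independent normal noise and no replicate effect. That checks the code and cannot show how the fit performs on these arrays. SEs of differences are from the limma fit. Members and lists were chosen with earlier results of these data known. Named genes are the members, their map neighbours, psbB, psbC, psbD, the 3 highest and 3 lowest other photosynthesis genes, measured nuclear partners, nearest profiles and organ markers. Genes outside that rule, among them the plastid genes lower in both replicates and the polymerase genes, were named after their values were seen. Alternatives were 3 scalings of all arrays, the replicate block, each array left out, filters on dim or cross-hybridizing probe sets, other priors and other reference lists.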

Additional observations from a re-analysis of the deposited data

How the results depend on the processing

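The labels do not say that a replicate number marks a shared plate or pool, and 2 pairs are too few to settle it. Deviations of same-numbered arrays from their group means correlated across probe sets (r = 0.662). The replicate numbers also look normalized apart, and r cannot separate that from a shared plate or pool. With the replicate block, limma again called 0 probe sets higher and 0 lower, and the differences of rbcL (-0.56) and psbA (-0.27) had an SE of 0.15 each. In this balanced design the block changes SEs and not differences, so it says nothing of the stability of the differences, the gaps to the median of the 31 genes (-1.47 and -1.17) or psbA minus rbcL (0.30). Without 1 array, the probe sets called higher ran from 0 to 30 and those called lower from 0 to 152, the upper ends being without albino replicate 2, which leaves a single albino array assumed to vary like the controls. With no variance moderation 1 was called lower, which was neither member. The rbcL difference kept its sign under the 3 scalings and without each array, from -0.99 to -0.14 without 1 array. The psbA difference was -0.25 with quantile normalization and, as deposited, ran from -0.28 to -0.26 without 1 array. Arrays were left out of the deposited values alone, where psbA signals nearly coincided within a group (8.25 and 8.23, 7.97 and 7.98). After quantile normalization they stood further apart (8.36 and 8.10 in control, 8.12 and 7.84 in albino). The narrow range therefore does not show that psbA was more stable than rbcL. The rbcL gap to the median of the 31 genes ran from -2.05 to -0.89 without 1 array and from -1.74 to -1.28 with other reference lists. The psbA gap ran from -1.60 to -0.86 and from -1.44 to -0.98. For psbA minus rbcL, compared after seeing the data, the range without 1 array was -0.12 to 0.71. The count of 24 photosynthesis genes higher in both replicates was the same under the 3 scalings. The deposited values carry no detection call or signal over background, which limits what can be said of dim probe sets.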

Other observations

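Plastid genes of the NADH dehydrogenase-like complex, which passes electrons around photosystem I, all went unlike rbcL and psbA in replicate 1 only. Of 11 listed 10 were measured, of which 5 were higher in both replicates (34.6% of all probe sets were), 5 opposite and 0 lower in both (28.5%). Their median difference was 0.64 in replicate 1, with a range from 0.23 to 1.57. In replicate 2 the median was -0.01 and the range -0.57 to 0.47, with ndhH (-0.57) below rbcL (-0.54). Genes of the mitochondrial genome, the other organelle with its own transcripts, had a median difference of 0.62 in replicate 1 and 0.33 in replicate 2 over the 11 measured of 33 listed. Of these 8 were higher and 1 lower in both replicates. None of the genes of either list was called by limma over all probe sets.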
